A study of Mus musculus with 18 samples.

Results

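The carbonic anhydrases are the enzymes that interconvert carbon dioxide and bicarbonate. They were followed here through 9 genes, Car2, Car3, Car4, Car5b, Car8, Car9, Car12, Car13 and Car14, taken by symbol from the table of 25791 genes that the authors deposited. RNA levels were read from uterine cross sections of 12-week-old mice on a mixed 129Sv X C57BL/6 background, either wild type (WT) or made null for Tsc2 in the uterus (KO). Intact mice kept their ovaries, ovx mice lost them at 4 weeks, and E2 mice lost them at 4 weeks and then carried a pellet of 0.5 mg 17β-estradiol with a 90-day release for 8 weeks. Each genotype was sampled in each state with 3 libraries, which gave 6 groups and 18 libraries. The Cre driver behind the uterine deletion and the estrous stage of the intact mice are not given in the labels. Nor do the labels state that the libraries of a group are separate animals, and the p-values therefore measure only the spread between these samples. TSC2 restrains the kinase complex mTORC1, and the series asks which uterine genes depend on estrogen and on that complex.

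Carbonic anhydrases differ mainly in where they sit in the cell. CAR2, CAR3 and CAR13 are cytosolic, CAR4, CAR9, CAR12 and CAR14 carry their active site on the outer face of the cell membrane, CAR5B is mitochondrial, and CAR8 has lost the catalytic activity. In the uterus and oviduct the family works beside bicarbonate, chloride and proton carriers that set the pH and the volume of the luminal fluid, a fluid that estrogen is known to increase.

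Levels are in FPKM (read fragments scaled by transcript length and by the size of the library), a scale on which genes can be compared with each other. Differences between groups are given on the scale of log2(FPKM + 1), which makes the fold of weakly expressed genes look smaller than it is, and carry the standard error (SE) of a limma fit to 13898 genes that reached 1 FPKM in at least 3 of the 18 libraries. The threshold for a call was an adjusted p under 0.05, with Benjamini-Hochberg adjustment across those 13898 genes in each comparison. The depth of the libraries is unknown, and FPKM summed to 216032 to 591668 per library. Tsc2 itself was at 2.04 to 2.51 FPKM in WT intact and 1.62 to 1.98 in KO intact. It was at 3.17 to 3.49 in WT and 2.39 to 3.33 in KO after ovariectomy, and at 2.38 to 2.73 in WT E2 and 1.75 to 2.42 in KO E2. The genotypes did not overlap in the intact state and overlapped in the other 2. KO E2 replicate 2 stood apart from its group, with a mean correlation across genes of 0.947 with the WT E2 libraries and 0.898 with the other KO E2 libraries. Its Tsc2 level was nevertheless the lowest of the group, at 1.75 FPKM beside 2.42 and 2.28 in replicates 1 and 3. The fat cell genes listed below summed to 5.17 FPKM in it and to 447 and 2443 in replicates 1 and 3. Which KO E2 libraries are typical of that group was not tested. Leaving out a library that resembles the other genotype tends to widen the gap between the genotypes. Calls gained without KO E2 replicate 2 are therefore no independent support. WT intact replicate 4 correlated at 0.891 with its own group and at 0.889 with WT E2. Libraries were grouped by shared steps in their lowest values, with the number of sets fixed at 4. The labels do not name these sets. Sets 1 and 2 held the intact libraries and sets 3 and 4 the ovx and E2 libraries, so that the presence of ovaries and the set cannot be told apart. Set 4 held replicate 2 of WT ovx and replicates 1 and 2 of each E2 group, and set 3 held the remaining ovx and E2 libraries. In whole tissue, fewer cells of a type and less RNA per cell cannot be told apart either.

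Car2 was the highest of the 9 genes in WT intact, KO intact and WT ovx uteri, with means of 144, 33.9 and 4.57 FPKM. In KO ovx the highest was Car4 with a mean of 31.8 FPKM. In WT E2, Car12 and Car2 had means of 42.2 and 40.5 FPKM, with Car2 the higher in 2 of the 3 libraries. In KO E2 the highest was Car3 with 228 FPKM, a mean carried by replicate 3 (641 FPKM, beside 42.2 and 0.0708 in the other libraries). The summed FPKM of the 16 Car genes in the table ran from 14.2 to 16.6 in WT ovx and, without overlap, from 40.6 to 173 in KO ovx. Car4 made up 35.1% to 40.7% of that sum in KO ovx and 5.25% to 8.46% in WT ovx.

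Of the 9 genes, 8 passed the filter on low values and Car14 did not. Car8 passed only through 3 ovx libraries. Its calls against ovx are in the counts below, were favored by that filter and add no independent support. E2 against ovx in WT changed 4 of the 8, where 47.5% of all tested genes were called, and intact against ovx in WT changed 4, where 45.3% were called, so neither count stood far from the background. In KO, E2 against ovx changed 3 of 8 against 27.1% of all genes, and intact against ovx changed 2 of 8 against 15.9%. KO against WT changed 1 of 8 in the ovx state (5.42% of all genes), 2 of 8 in the E2 state (8.49%) and 1 of 8 in the mean of the 3 states (5.90%). In the intact state limma called 0 of 8 (2.18% of all genes), and 3 of the 8 had an unadjusted p under 0.05. The effect of E2 differed between genotypes for 2 of 8 (11.0% of all genes) and the effect of the ovaries for 1 of 8 (4.63%). These comparisons share groups, for example the KO ovx libraries, so their counts are not independent of each other. In E2 against ovx the median log2 difference of the 8 genes was 0.90 in WT, beside 0.24 over all genes, and 0.13 in KO, beside 0.07.

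**Figure D1:**
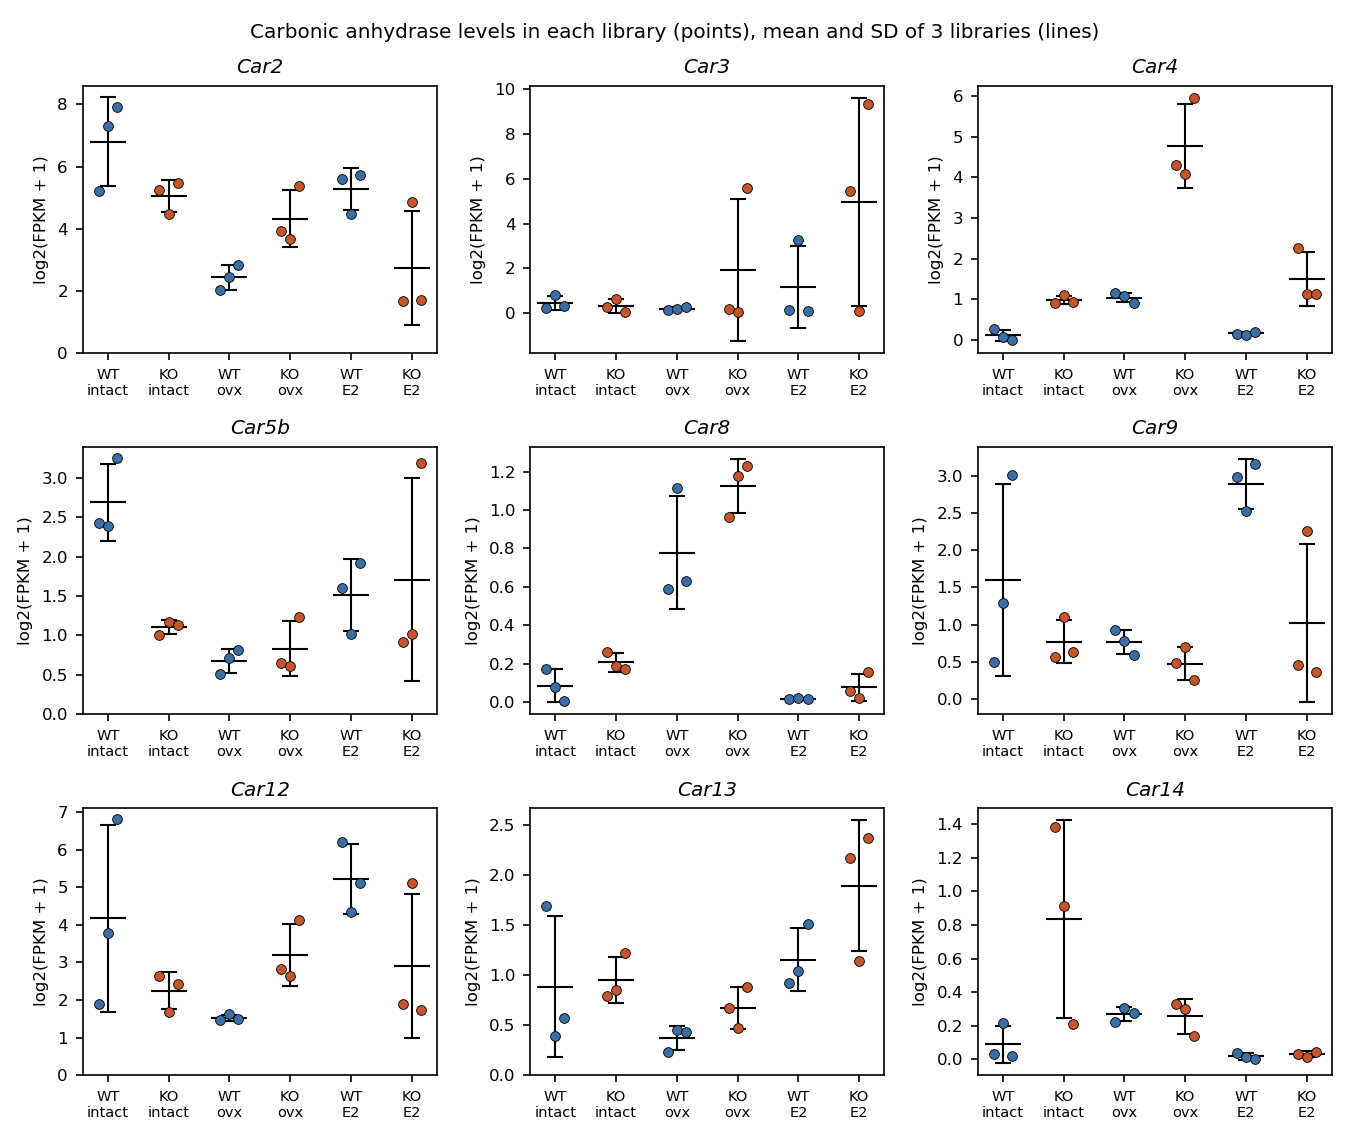
Level of each of the 9 genes as log2(FPKM + 1) in every library, with 1 panel per gene, the 6 groups along the horizontal axis, WT in blue and KO in orange, and lines for the mean and SD of 3 libraries. Car4 stands far above all other groups in the 3 KO ovx libraries, and Car8 is high in both ovx groups.

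**Figure D2:**
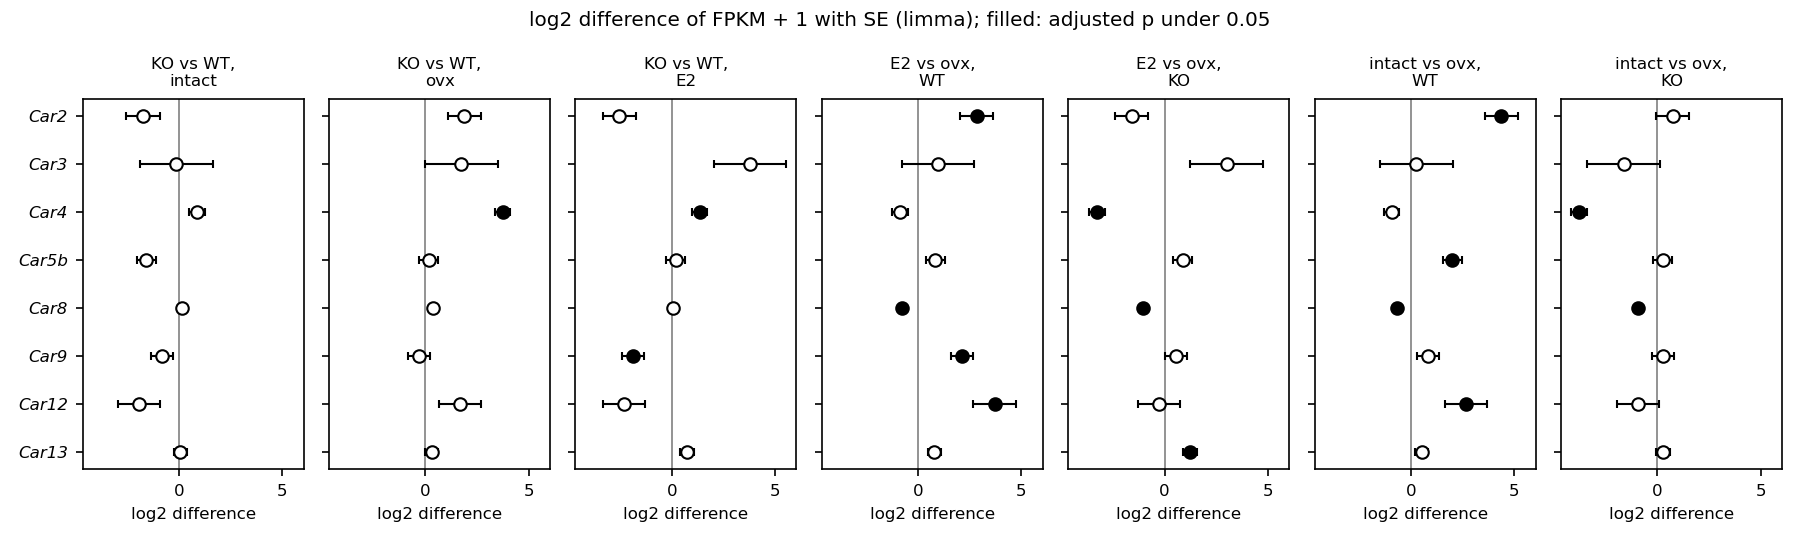
The log2 difference of FPKM + 1 for the 8 tested genes in 7 comparisons, with bars for the SE of the limma fit and filled points for an adjusted p under 0.05. The filled points of Car4 lie to the right of 0 in KO against WT and to the left of 0 in both KO comparisons with ovx.

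Car2 encodes the fast cytosolic enzyme found in many secretory epithelia and in red blood cells. In WT uteri it was high in the intact and E2 groups: the 3 intact libraries stood at 35.9, 158 and 239 FPKM, the 3 E2 libraries at 47.5, 21.4 and 52.7 FPKM, and the 3 ovx libraries at 3.08, 4.43 and 6.19 FPKM. Neither group overlapped with WT ovx. The mean level was 8.88 times that of WT ovx in WT E2 (log2 difference 2.84 ± 0.80 SE, limma adjusted p = 0.00977) and 31.6 times in WT intact (4.37 ± 0.80, adjusted p = 0.000825). Within sets of libraries the E2 difference in WT was 3.31 in set 3 (adjusted p = 0.0854) and 2.60 in set 4 (adjusted p = 0.216), each on few libraries, and it was 2.74 with set as a term (adjusted p = 0.0239).

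The KO uteri did not show this order of Car2 levels. KO ovx libraries were at 14.3, 11.7 and 40.6 FPKM, all above the WT ovx libraries, while KO E2 libraries were at 2.17, 27.8 and 2.25 FPKM and KO intact libraries at 37.4, 21.4 and 43.0 FPKM. The 27.8 FPKM belonged to KO E2 replicate 2, the library that stood apart. KO against WT gave a log2 difference of 1.89 ± 0.80 in ovx (adjusted p = 0.189), -2.54 ± 0.80 in E2 (adjusted p = 0.064) and -1.74 ± 0.80 in the intact state (adjusted p = 0.262), none past the threshold. The effect of E2 on Car2 differed between the genotypes by -4.43 ± 1.14 (limma adjusted p = 0.025), from a rise in WT to a log2 difference of -1.59 ± 0.80 in KO (adjusted p = 0.156). This difference lost its call when any of 7 libraries was left out, namely replicates 1 and 2 of WT ovx, 4 of KO ovx, 1 and 5 of WT E2 or 1 and 3 of KO E2, with values of -4.43 to -3.89 and adjusted p of 0.0521 to 0.0697. With set as a term it was -4.52 (adjusted p = 0.0441), and within set 3 it was -5.93 (adjusted p = 0.126). Without KO E2 replicate 2, which resembled WT E2, Car2 passed the threshold in KO against WT in the E2 state (-3.59, adjusted p = 0.00217) and in E2 against ovx in KO (-2.64, adjusted p = 0.0108). The corresponding difference between genotypes for intact against ovx was -3.63 ± 1.14 (adjusted p = 0.0745), and without WT intact replicate 1 it was -4.43 (adjusted p = 0.027).

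Epithelial marker levels moved with Car2. The summed FPKM of 10 epithelial genes (Krt8, Krt18, Krt19, Epcam, Cdh1, Cldn3, Cldn4, Cldn7, Ehf and Elf3) was 440 to 1515 in WT intact, 866 to 1389 in WT E2 and 88.3 to 158 in WT ovx. In KO it was 229 to 449 in intact, 221 to 688 in ovx and 122, 887 and 335 in E2 replicates 1, 2 and 3. Of these 10 genes, 9 rose in E2 against ovx in WT (47.5% of all genes called), and 8 had an effect of E2 that differed between the genotypes in the same direction as Car2 (11.0% of all genes called), with a list median of -3.21 beside -0.14 over all genes. As a share of the epithelial sum, Car2 was 2.93% to 3.91% in WT ovx, 2.48% to 4.56% in WT E2, 4.45% to 5.90% in KO ovx, 0.671% to 3.14% in KO E2, 5.48% to 16.3% in KO intact and 8.16% to 23.6% in WT intact. On this scale the ranges of WT ovx and WT E2 overlapped, KO E2 lay below KO ovx, and WT intact stayed above all of the ovx and E2 libraries. The part of the epithelium in the Car2 result was not tested. The genes with the level pattern most like that of Car2 over 18 libraries were Dsp (Pearson's r 0.966), Marveld2 (0.958), Dlx6os1 (0.952), Grb7 (0.950) and Rnf128 (0.942), of which Dsp and Marveld2 encode proteins of epithelial cell junctions. The sum of 6 red blood cell genes was 5.99 to 12.1 FPKM in WT intact, where Car2 was highest, 42.0 to 50.9 in WT ovx and 61.0 to 170 in WT E2. It was thus lower than ovx in WT intact and higher in WT E2. In KO E2 it was 82.6 to 592. The part of red blood cells in the rise of Car2 in WT E2 was not tested.

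**Figure D3:**
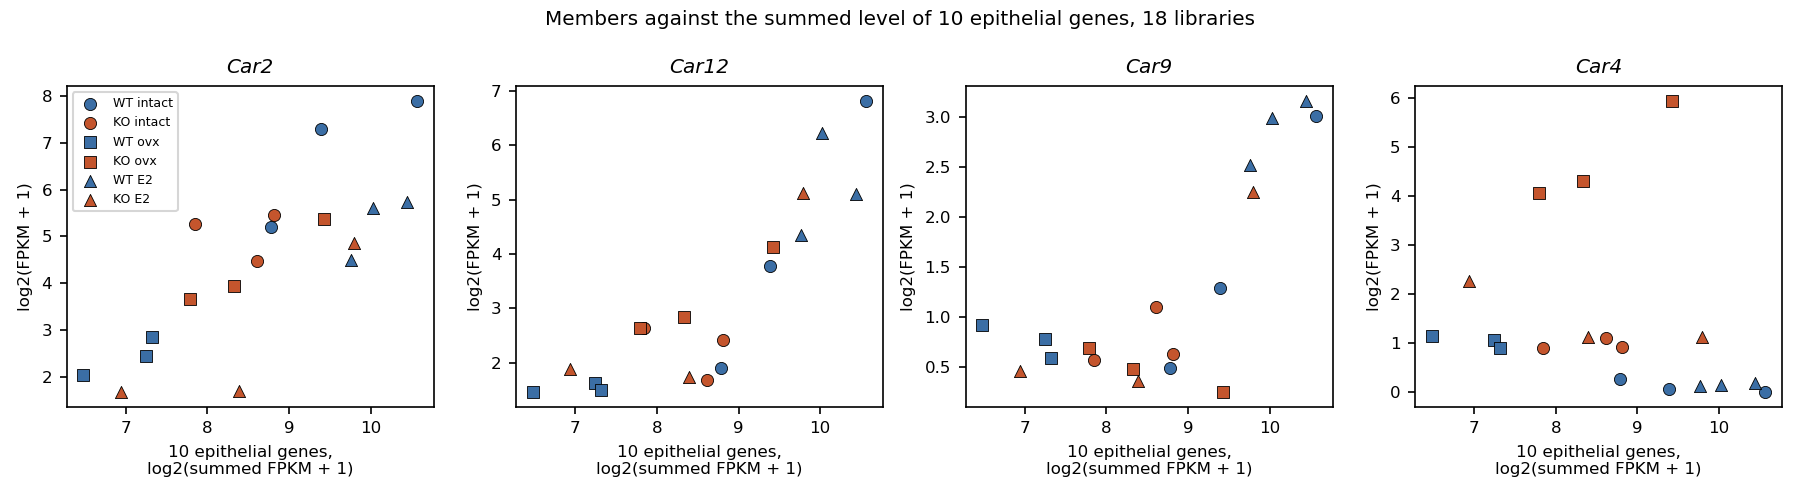
Car2, Car12, Car9 and Car4 as log2(FPKM + 1) on the vertical axis against log2 of the summed FPKM + 1 of 10 epithelial genes, for 18 libraries, with WT in blue, KO in orange and the hormone states as circles, squares and triangles. The WT E2 libraries, WT intact replicate 4 and KO E2 replicate 2, with high epithelial sums, are high in Car12 and Car9, KO ovx replicate 4 has the next highest sum and the lowest Car9, and Car4 is highest in the 3 KO ovx libraries.

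Car13 encodes another cytosolic enzyme and was low throughout, at 0.171 to 4.15 FPKM. It rose with E2 in KO, from 0.587, 0.380 and 0.837 FPKM in the ovx libraries to 3.50, 1.21 and 4.15 FPKM in the E2 libraries, with no overlap and a log2 difference of 1.22 ± 0.33 (limma adjusted p = 0.0134). The WT libraries did not overlap either, at 0.171, 0.365 and 0.345 FPKM in ovx and 0.885, 1.05 and 1.85 FPKM in E2, with a log2 difference of 0.79 ± 0.33 that missed the threshold (adjusted p = 0.0615). The effect of E2 was not shown to differ between the genotypes (0.44 on the log2 scale). The KO result lost its call without KO ovx replicate 2 (1.12, adjusted p = 0.0533), without KO E2 replicate 1 (1.08, adjusted p = 0.0562) and without KO E2 replicate 3 (0.99, adjusted p = 0.0554), and was 1.47 with set as a term (adjusted p = 0.0135). Other markers were high in the same KO E2 libraries. In replicates 1, 2 and 3 the sum of red blood cell genes was 386, 82.6 and 592 FPKM and that of fat cell genes 447, 5.17 and 2443 FPKM. Of the immune genes tested, 8 of 8 neutrophil and 7 of 7 macrophage genes were called higher in KO E2 than in KO ovx (27.1% of all genes called). In WT, 3 of 8 and 4 of 7 were called higher with E2 (47.5% of all genes called). The part of these cell types in the Car13 result was not tested. In KO against WT in the E2 state Car13 became called only without KO E2 replicate 2, at 1.11 (adjusted p = 0.0223) from 0.74 with all libraries (adjusted p = 0.198). Car13, Car3 and Car2 lie in a cluster on chromosome 3 in the positions of the table (Car13 from 14641727 to 14663002, Car3 from 14863538 to 14872381 and Car2 from 14886426 to 14900770, on a build not named in the sources used here), with Car1 between Car13 and Car3. Over 18 libraries, which share groups and sets, Pearson's r of log2 levels was 0.65 between Car13 and Car3, -0.40 between Car2 and Car3 and -0.25 between Car2 and Car13.

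Car3 encodes a cytosolic enzyme of low activity that is abundant in fat cells, skeletal muscle and liver. It was near 0 in most uteri, at 0.0365 to 0.751 FPKM in 14 of the 18 libraries, and high in 4 libraries from 3 groups. KO E2 replicates 3 and 1 stood at 641 and 42.2 FPKM, KO ovx replicate 4 at 47.7 FPKM and WT E2 replicate 2 at 8.67 FPKM, whereas the third KO E2 library was at 0.0708 FPKM and the other KO ovx and WT E2 libraries were at 0.128 FPKM or less. Groups therefore overlapped in all 7 comparisons between groups, and Car3 was called in 0 of 10 limma comparisons, with an unadjusted p under 0.05 in 1 of them. KO against WT gave log2 differences of 3.79 ± 1.76 in E2 (adjusted p = 0.22) and 1.74 ± 1.76 in ovx (adjusted p = 0.641), and the latter turned to -0.09 without KO ovx replicate 4. Without KO E2 replicate 2, the E2 state gave 6.21 (adjusted p = 0.00777).

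Fat cell genes were high in the same 4 libraries as Car3. Adipoq, which encodes the fat cell hormone adiponectin, was at 97.2 and 16.4 FPKM in KO E2 replicates 3 and 1, at 15.0 in KO ovx replicate 4, at 2.71 in WT E2 replicate 2 and at 0.0556 or less in the other 14 libraries. The summed FPKM of 8 fat cell genes ran from 5.17 to 2443 in KO E2, from 15.6 to 152 in KO ovx, and from 2.86 to 49.3 in WT E2. It ran from 5.36 to 8.13 in WT ovx, from 2.92 to 9.54 in KO intact and from 0.272 to 2.75 in WT intact. Plin4 made up most of the sum in KO ovx replicates 1 and 2 (15.3 and 16.0 FPKM) and in every WT ovx and KO intact library. Adipoq, Lep and Retn were listed at 0 in all WT intact libraries, and Adipoq, Cfd, Plin1, Lep and Cidec in all KO intact libraries. Over 18 libraries the genes with the level pattern most like that of Car3 were Adipoq (Pearson's r of log2 levels 0.995), Cidec (0.994), Cfd (0.980), Retn (0.977) and Cd36 (0.974), a description of 18 libraries of which 4 carry the high values. The sum of 8 skeletal muscle genes, most of it Acta1, was 147 to 245 FPKM in KO E2, 201 to 579 in KO ovx, 168 to 393 in WT E2 and 326 to 453 in WT ovx. Myh4 and Mylpf, which encode fast muscle myosin chains, stayed at or under 0.697 FPKM in every group. Ckm, the muscle creatine kinase of the same list, was at 29.2 to 51.7 FPKM in KO ovx, 2.10 to 3.59 in KO E2 and 8.54 to 10.3 in WT ovx. It was higher in KO ovx than in WT ovx (log2 difference 1.87 ± 0.34, limma adjusted p = 0.00586). The part of fat tissue in the Car3 values was not tested.

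**Figure D4:**
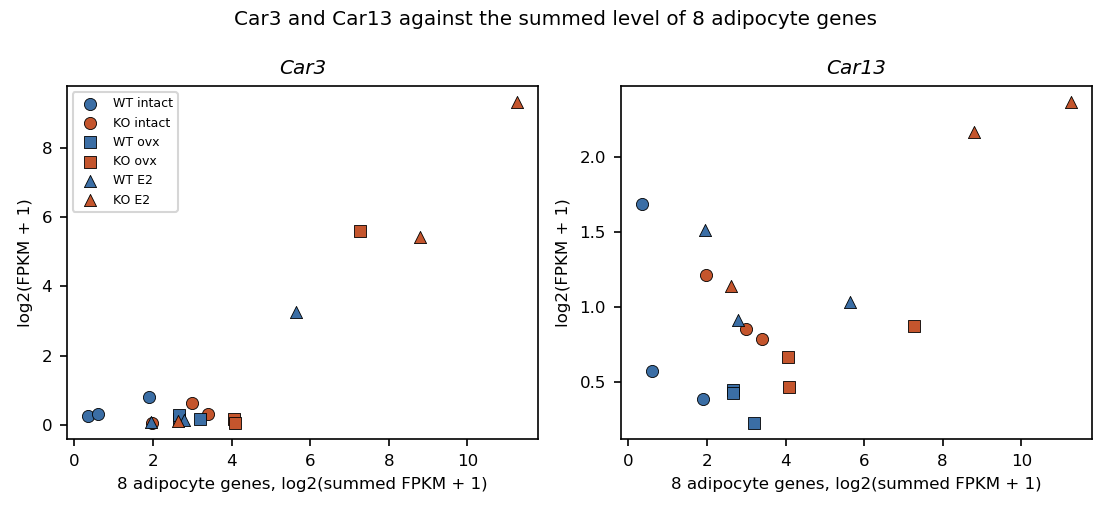
Car3 and Car13 as log2(FPKM + 1) on the vertical axis against log2 of the summed FPKM + 1 of 8 fat cell genes, for 18 libraries, with WT in blue, KO in orange and the hormone states as circles, squares and triangles. The 4 libraries with Car3 of 8.67 to 641 FPKM are the 4 with the highest sums of fat cell genes, and KO E2 replicates 1 and 3 are also the highest in Car13.

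Car4 encodes an enzyme anchored by a lipid to the outer cell surface, known from capillary endothelium and from fluid-moving epithelia. It marked the KO uterus after removal of the ovaries. The KO ovx libraries stood at 18.7, 15.8 and 60.9 FPKM, the WT ovx libraries at 1.20, 1.10 and 0.872 FPKM, and no library outside KO ovx exceeded 3.81 FPKM. The mean in KO ovx was 30.0 times that in WT ovx (31.8 ± 25.3 against 1.06 ± 0.170 FPKM, SD, n = 3; log2 difference 3.74 ± 0.38 SE, limma adjusted p = 9.33e-05). The highest KO ovx value was that of replicate 4, and the call was kept without it and under each of the 15 alternatives run for this comparison, with values of 3.15 to 4.52. It was 3.75 within set 3 (adjusted p = 0.0157) and 3.80 with set as a term (adjusted p = 0.000855).

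Car4 was low in KO uteri with ovaries or with E2. KO E2 libraries were at 3.81, 1.17 and 1.18 FPKM, which was 15.5 times lower on average than in KO ovx (log2 difference -3.27 ± 0.38, limma adjusted p = 2.38e-05), and KO intact libraries were at 0.877, 1.14 and 0.893 FPKM (-3.80 ± 0.38, adjusted p = 1.13e-05). In WT, Car4 was lower still, at 0.110, 0.0895 and 0.145 FPKM in E2 and 0.196, 0.0430 and a listed 0 in the intact libraries, and both groups lay below every WT ovx library. The WT log2 differences from ovx were -0.88 ± 0.38 for E2 (adjusted p = 0.0677) and -0.93 ± 0.38 for intact (adjusted p = 0.0571). At these low levels the result depended on the constant added before the logarithm, and with 0.1 in place of 1 the WT differences were -2.43 (adjusted p = 0.00178) and -2.83 (adjusted p = 0.000768). The difference between genotypes was -2.39 ± 0.54 for E2 (adjusted p = 0.0148) and -2.87 ± 0.54 for intact against ovx (adjusted p = 0.0147) with a constant of 1, and -1.40 (adjusted p = 0.234) and -1.80 (adjusted p = 0.147) with 0.1. The E2 value was -2.45 with set as a term (adjusted p = 0.027) and -2.82 within set 3 (adjusted p = 0.142).

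KO libraries lay above WT libraries in all 3 states for Car4. The mean of the 3 states differed by 1.98 ± 0.22 on the log2 scale (limma adjusted p = 0.000497), higher in KO, and this call was kept in each of 25 alternatives. In the E2 state the difference of 1.35 ± 0.38 passed the threshold (adjusted p = 0.0394) and lost the call in 11 of 16 alternatives. Among these were leaving out WT E2 replicate 1 (1.34, adjusted p = 0.107), WT E2 replicate 2 (1.33, adjusted p = 0.0819), WT E2 replicate 5 (1.37, adjusted p = 0.107), KO E2 replicate 1 (0.96, adjusted p = 0.217) and KO E2 replicate 3 (1.53, adjusted p = 0.0565). With set as a term it was 1.35 (adjusted p = 0.0625). In the intact state the difference was 0.87 ± 0.38 (adjusted p = 0.234), and with a constant of 0.1 it was 2.72 (adjusted p = 0.0176). Set against the epithelial sum, the KO ovx group was still the highest: Car4 was 5.84% to 8.86% of that sum there, 0.550% to 1.36% in WT ovx, 0.0103% to 0.0106% in WT E2 and 3.13%, 0.132% and 0.353% in KO E2 replicates 1, 2 and 3. The summed FPKM of 8 endothelial genes was lower in KO in the ovx state (16.0 to 33.2, against 51.4 to 62.7 in WT). In the intact state it was higher in KO, as Car4 was (34.6 to 89.3, against 3.06 to 16.6 in WT). There 2 of the 8, Pecam1 and Vwf, were called higher, where 2.18% of all genes were called. The list median was 1.35, beside -0.04 over all genes. In the E2 state the sum was 61.9, 16.1 and 59.9 in KO and 12.3 to 18.8 in WT. The list median there was 0.89, beside -0.05 over all genes. By limma 0 of the 8 were called (8.49% of all genes called), with an unadjusted p under 0.05 for 6. The part of the endothelium in the Car4 values of the intact and E2 states was not tested. The genes whose levels over 18 libraries were most like those of Car4 were Snhg11 (Pearson's r 0.966), Tll1 (0.964), Ptgdr (0.940), Fxyd2 (0.940) and Gcgr (0.940), again over libraries that share groups and sets.

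Car9 and Car12 encode membrane enzymes with an extracellular active site. Car9 is a textbook target of the hypoxia-inducible factors, and Car12 is known as an estrogen-regulated gene in breast cells. Their promoters are shown with that of Car4 because Car9 and Car12 rose together in WT with E2 while Car4 was high without it. The 250 bases before each start are from RefSeq on GRCm38.p6, 5′ to 3′ on the gene's strand, at chr4:43506776-43507025 (plus strand) for Car9, chr9:66713436-66713685 (plus strand) for Car12 and chr11:84957504-84957753 (plus strand) for Car4, and capitals mark the core of the hypoxia response element, ACGTG, here read on the opposite strand as CACGT.
Car9: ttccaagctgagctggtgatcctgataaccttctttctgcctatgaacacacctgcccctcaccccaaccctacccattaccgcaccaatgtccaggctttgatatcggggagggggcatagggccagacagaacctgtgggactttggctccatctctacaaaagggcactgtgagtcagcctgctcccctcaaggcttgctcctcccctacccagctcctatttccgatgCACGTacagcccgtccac
Car12: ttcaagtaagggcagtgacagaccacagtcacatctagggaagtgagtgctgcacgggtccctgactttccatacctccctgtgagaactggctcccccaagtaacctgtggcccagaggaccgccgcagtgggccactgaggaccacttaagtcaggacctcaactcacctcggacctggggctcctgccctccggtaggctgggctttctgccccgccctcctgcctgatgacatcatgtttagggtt
Car4: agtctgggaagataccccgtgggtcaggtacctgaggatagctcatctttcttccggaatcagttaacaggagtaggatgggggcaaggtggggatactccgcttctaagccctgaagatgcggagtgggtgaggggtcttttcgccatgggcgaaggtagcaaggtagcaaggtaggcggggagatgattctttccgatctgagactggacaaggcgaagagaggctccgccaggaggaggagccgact
Of the 9 genes, 5 had a promoter in the RefSeq table. The core ACGTG, searched on both strands, lay at -18 from the start in Car9 and at -7 in Car14 and was not in this window of Car4, Car5b or Car12, while 16.6% of 32851 promoters of this length held it. The longer E-box CACGTG, which contains it, was in 6.02% of promoters and the full palindromic estrogen response element in 0.0640%, and neither was in these windows of the 5 genes. The windows of Car12 and Car14 lie inside the RefSeq span of the gene, so sequence before a start further upstream was not searched. These matches describe letters in a window only.

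Car12 in WT stood at 73.7, 19.3 and 33.6 FPKM with E2 and at 1.74, 2.07 and 1.83 FPKM in ovx. The WT E2 mean was 22.4 times that of WT ovx (42.2 ± 28.2 against 1.88 ± 0.170 FPKM, SD, n = 3; log2 difference 3.70 ± 1.02 SE, limma adjusted p = 0.0085). Within sets the difference was alike, 3.63 in set 3 and 3.66 in set 4, without a call in these few libraries (adjusted p = 0.14 and 0.195), and with set as a term it was 3.47 (adjusted p = 0.0215). The WT intact libraries spread widely, at 2.74, 12.8 and 112 FPKM, all above WT ovx. Their log2 difference of 2.65 ± 1.02 (adjusted p = 0.046) lost its call in 10 of 13 alternatives, and fell to 1.32 without WT intact replicate 4 (adjusted p = 0.258). It was also not called without WT intact replicate 2 (2.84, adjusted p = 0.0638) or without WT ovx replicate 1, 2 or 3 (2.61 to 2.69, adjusted p of 0.0875 to 0.104).

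In KO uteri no comparison of hormone states was called for Car12. KO E2 libraries were at 2.71, 33.9 and 2.32 FPKM, again with replicate 2 beside the WT E2 libraries. KO ovx libraries were at 6.13, 5.20 and 16.5 FPKM, and KO intact libraries at 5.24, 2.22 and 4.35 FPKM. All 3 KO ovx libraries lay above the WT ovx libraries, with a log2 difference of 1.67 ± 1.02 that missed the threshold (adjusted p = 0.381). KO against WT in the E2 state was -2.31 ± 1.02 (adjusted p = 0.194), and without KO E2 replicate 2 it was -3.41 (adjusted p = 0.0269). The effect of E2 differed between genotypes by -3.98 ± 1.45 (adjusted p = 0.0883), and without KO E2 replicate 2 by -5.09 (adjusted p = 0.0164). The effect of the ovaries differed by -3.60 ± 1.45 (adjusted p = 0.142), and without WT intact replicate 1 by -4.73 (adjusted p = 0.0397).

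Car9 rose with E2 in WT, from 0.900, 0.717 and 0.511 FPKM in the ovx libraries to 6.92, 4.73 and 7.95 FPKM in the E2 libraries. The ratio of means was 9.21 and the log2 difference 2.12 ± 0.53 (limma adjusted p = 0.00465), with 2.40 within set 3 (adjusted p = 0.0664), 1.97 within set 4 (adjusted p = 0.169) and 2.05 with set as a term (adjusted p = 0.0129). In the WT intact libraries Car9 was at 0.409, 1.44 and 7.04 FPKM and overlapped with WT ovx (log2 difference 0.83, adjusted p = 0.212), and without WT intact replicate 1 the difference was 1.38 (adjusted p = 0.0418). The KO libraries were at 0.394, 0.620 and 0.191 FPKM in ovx, 0.485, 1.14 and 0.554 in intact and 0.377, 3.76 and 0.285 in E2. Only the KO E2 library that stood apart exceeded 1.14 FPKM. KO against WT in the E2 state was -1.86 ± 0.53 (adjusted p = 0.0398), with no overlap between the genotypes. That call was lost in 14 of 16 alternatives, including each removal of WT E2 replicate 1 (-1.82), 2 (-2.05) or 5 (-1.73) and of KO E2 replicate 1 (-1.58) or 3 (-1.53), with adjusted p of 0.0527 to 0.191. With set as a term it was -1.86 (adjusted p = 0.0647). Without KO E2 replicate 2, the effect of E2 on Car9 differed between genotypes by -2.19 (adjusted p = 0.0341), against -1.57 with all libraries (adjusted p = 0.183). The mean of the 3 states differed by -0.99 ± 0.30 (adjusted p = 0.0671), and passed the threshold without WT intact replicate 1 (-1.18, adjusted p = 0.0206) or without KO E2 replicate 2 (-1.20, adjusted p = 0.00847). Over 18 libraries, Pearson's r between log2 levels of Car9 and Car12 was 0.84. The 5 libraries with the highest epithelial sums were the 5 highest in Car9, while KO ovx replicate 4, the next in sum, was the lowest in Car9 at 0.191 FPKM. Divided by the epithelial sum, Car9 spanned 0.323% to 1.02% across WT ovx libraries, a range that enclosed the WT E2 shares (0.546% to 0.663%). For Car12 the WT E2 shares (2.22% to 7.06%) all lay above those of WT ovx (1.15% to 1.98%). In KO, ovx and E2 shares overlapped for both genes. The part of the epithelium in the Car9 and Car12 results was not tested.

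Of 12 other genes known to be induced by hypoxia, as Car9 is, most rose with E2 in both genotypes. In WT, 8 of the 12 rose (Ankrd37, Bnip3, Egln3, Hk2, Ldha, Pdk1, Pgk1 and Slc2a1) and Vegfa, the vascular growth factor, fell, where 47.5% of all tested genes were called, with a median of 1.41 beside 0.24 over all genes. In KO, 7 of the 12 rose with E2 and none of the rest was called, where 27.1% of all genes were called, with a median of 1.36 beside 0.07. Ldha, which encodes a lactate dehydrogenase subunit, rose by 3.31 ± 0.46 in WT (limma adjusted p = 0.000145) and by 1.88 ± 0.46 in KO (adjusted p = 0.00819). Egln3, an oxygen-sensing hydroxylase, was at 11.0 to 24.1 FPKM in WT E2 and 4.96 to 13.6 in KO E2, with 0.726 to 1.18 in WT ovx. KO against WT in the E2 state was called for 0 of the 12 by limma (8.49% of all genes), with an unadjusted p under 0.05 for 2.

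Car14 encodes a transmembrane enzyme and reached 1 FPKM in 1 library, so it was outside the limma fit. It was at 1.60, 0.881 and 0.159 FPKM in KO intact, at 0.0215, 0.164 and 0.0159 in WT intact and at 0.169, 0.235 and 0.212 in WT ovx. It was at 0.255, 0.233 and 0.101 in KO ovx, at 0.0253, 0.0120 and a listed 0 in WT E2, and at 0.0243, 0.00829 and 0.0319 in KO E2. The E2 groups lay below the ovx groups in both genotypes, and KO intact held the 2 highest libraries. An exact two-sided permutation test of KO against WT, with genotype permuted within each state over 8000 arrangements, gave a mean difference in log2(FPKM + 1) of 0.25 (p = 0.102, where the smallest p possible was 0.00025). Leaving out KO ovx replicate 4 gave 0.27 (exact p = 0.0135), and leaving out KO intact replicate 4 gave 0.35 (exact p = 0.0498). Each other library left out gave an exact p of 0.087 to 0.202.

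Car5b encodes a mitochondrial enzyme. Its highest WT group was intact, at 4.38, 4.24 and 8.52 FPKM, followed by E2 at 2.04, 1.03 and 2.78 FPKM and ovx at 0.425, 0.636 and 0.753 FPKM, with no overlap between these 3 groups. Intact uteri stood 9.45 times above ovx on average in WT (log2 difference 2.01 ± 0.46, limma adjusted p = 0.003), a call kept in each of 13 alternatives, with values of 1.73 to 3.00. None of these alternatives could take the set into account, since the sets and the presence of ovaries cannot be told apart. KO intact libraries were at 1.01, 1.25 and 1.19 FPKM, all below the WT intact libraries, with a difference of -1.59 ± 0.46 that missed the threshold (adjusted p = 0.0831), or -1.77 within set 1 (adjusted p = 0.0845) and -1.22 within set 2 (adjusted p = 0.725). E2 against ovx was 0.84 ± 0.46 in WT (adjusted p = 0.142) and 0.88 ± 0.46 in KO (adjusted p = 0.167), and with set as a term both were called, at 1.15 (adjusted p = 0.0328) and 1.50 (adjusted p = 0.0346). KO ovx libraries were at 0.573, 0.523 and 1.35 FPKM, and KO E2 libraries at 0.883, 1.03 and 8.16 FPKM, the last being replicate 3, the library with the most Car3. Without it, KO against WT in the E2 state turned from 0.20 to -0.55 (adjusted p = 0.274), and the mean of the 3 states went from -0.41 (adjusted p = 0.372) to -0.66 (adjusted p = 0.0287).

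Car8 encodes the relative without catalytic activity that is known to bind a calcium channel of the endoplasmic reticulum in neurons. It was detected mainly after removal of the ovaries. WT ovx libraries were at 0.505, 1.17 and 0.546 FPKM and KO ovx libraries at 0.954, 1.26 and 1.35 FPKM, whereas E2 libraries were at 0.00922 to 0.0131 FPKM in WT and 0.0132 to 0.112 in KO, and intact libraries at 0.00245 to 0.127 in WT and 0.127 to 0.199 in KO. Both ovx groups lay above every other library. The log2 differences from ovx were -0.76 ± 0.14 for E2 in WT (limma adjusted p = 0.000708), -1.05 ± 0.14 for E2 in KO (adjusted p = 8.43e-05), -0.69 ± 0.14 for intact in WT (adjusted p = 0.00157) and -0.92 ± 0.14 for intact in KO (adjusted p = 0.000519). Within set 3 the E2 differences were -0.60 in WT (adjusted p = 0.0389) and -0.97 in KO (adjusted p = 0.00779), and within set 4 the WT value was -1.10 (adjusted p = 0.0218). Car8 reached 1 FPKM in 3 libraries, all of them ovx, so it entered the fit through the groups where it is high and had to differ. The calls were also made with no filter on low values, but on the same libraries, so neither this nor the values within sets adds independent support. KO and WT ovx libraries overlapped, with a difference of 0.35 ± 0.14 (adjusted p = 0.169).

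Transport beside carbonic anhydrases was read from a list of 26 genes linked to the movement of bicarbonate, chloride, protons, lactate and water. Not all of them encode carriers (Bsg and Slc9a3r1 do not), and 15 were tested. E2 against ovx in WT raised 7 (Aqp5, Bsg, Cftr, Slc16a1, Slc16a3, Slc26a4 and Slc9a3r1) and lowered Slc4a3, where 47.5% of all tested genes were called, with a list median of 0.23 beside 0.24 over all genes. In KO, 5 of the 7 rose with E2, and Slc4a2 and Slc4a3 fell, where 27.1% of all genes were called. Slc26a4, which encodes the chloride and bicarbonate exchanger pendrin, was at 7.96 to 43.4 FPKM in WT E2 and 0.00411 to 0.0593 in WT ovx (log2 difference 4.38 ± 0.73, limma adjusted p = 0.000372). Cftr, the chloride and bicarbonate channel of cystic fibrosis, was at 2.54 to 6.09 FPKM in WT E2 and 0.103 to 2.42 in KO E2 (-1.62 ± 0.46, limma adjusted p = 0.0398). Of the 15 tested genes, only this 1 was called in KO against WT in the E2 state. With 8.49% of all genes called there, that count is near the background. Intact against ovx raised 5 and lowered 3 of the 15 in WT (45.3% of all genes called), and raised 1 and lowered 3 in KO (15.9%).

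Of the 15 tested genes of this list, 1 was called in KO against WT in the ovx state, namely Slc4a2. With 5.42% of all genes called there, this count is near the background. Slc4a2 encodes a chloride and bicarbonate exchanger and was at 12.2 to 17.1 FPKM in KO ovx, 5.24 to 6.57 in WT ovx, 4.95 to 6.30 in KO E2 and 2.73 to 3.64 in KO intact. KO ovx lay above all of these, with log2 differences of 1.17 ± 0.16 from WT ovx (limma adjusted p = 0.000671) and, for the difference between genotypes in the effect of E2, of -1.26 ± 0.23 (adjusted p = 0.00542).

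The other 7 Car genes in the table (Car1, Car5a, Car6, Car7, Car10, Car11 and Car15) were low, and 2 of them were tested. Car11, which encodes another relative without catalytic activity, was highest in WT ovx, at 5.26, 3.74 and 4.23 FPKM, and lower there with E2 (-1.45 ± 0.33, limma adjusted p = 0.00285) and in intact uteri (-1.89 ± 0.33, adjusted p = 0.000621). Car15, a membrane enzyme, reached 2.87 FPKM in KO ovx replicate 4 and was lower with E2 in KO (-0.78 ± 0.27, adjusted p = 0.0409), and its effect of E2 differed between the genotypes (-1.33 ± 0.38, adjusted p = 0.037).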

How the data were processed

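The deposited table holds FPKM values per gene and library, which the authors made with Cuffdiff and Cufflinks 2.0.2, per the submitters' processing notes. Aligner, annotation and build are not given in the sources used here. Since FPKM keep no read counts, no depth or counting interval is given. Values were analysed as log2(FPKM + 1) with limma 3.58.1 in R 4.3.3 (a mean per group over 18 libraries, eBayes with trend, two-sided, Benjamini-Hochberg over 13898 genes within each of 10 comparisons), after the script was tested on simulated data. Libraries were placed in 4 sets, a number fixed in the clustering, by how often their values up to 0.05 FPKM shared ratios within 0.02 log2. The median share was 7.33% of genes within sets (3.56% to 19.6%) and 2.91% between sets with ovaries alike (1.78% to 3.98%). These shares made the sets, so their contrast is no test of them. With the number again fixed at 4, 3 of 3 other settings gave the same sets. No 2 libraries held identical values. Sums over lists are sums of FPKM. Named were all 9 members, from each list at most 4 called genes per comparison by size (lists given whole aside), and the 5 genes most like each of the 3 members with the widest range of group means. The members, lists and tests were chosen with earlier results of these data known. Alternatives were another constant, no filter, 2 other scalings, eBayes without trend, only the groups compared, a replicate block, set as a term, each set alone and each library left out. Set as a term and each set alone could not be run for intact against ovx.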

Additional observations from a re-analysis of the deposited data

Results flagged for a closer look

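The effect of E2 against ovx differed between the genotypes for Car2, by -4.43 on the log2 scale (limma adjusted p = 0.025), higher with E2 in WT and not called in KO, in a test of the difference itself. This call was lost in 9 of 21 alternatives, among them 7 in which a library was left out, with adjusted p of up to 0.133. For Car4 the same difference was -2.39 (adjusted p = 0.0148), and the difference for intact against ovx was -2.87 (adjusted p = 0.0147). Both depended on the constant added before the logarithm and were -1.40 (adjusted p = 0.234) and -1.80 (adjusted p = 0.147) with 0.1 in place of 1. The ratio of mean FPKM in ovx to that in E2 was 15.5 in KO and 9.20 in WT. The 2 Car4 values share the ovx libraries. KO ovx replicate 4 holds the highest Car2 and Car4 values of its group and also 152 FPKM of fat cell genes, whose part was not tested.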

How the results depend on the processing

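Of 20 calls of members, 10 were kept under every alternative run: Car2 and Car5b for intact against ovx in WT, Car4 for KO against WT in ovx and in the mean of the states and for both KO comparisons with ovx, and Car8 in its 4 comparisons. Intact against ovx could not be run with set as a term or within sets, so its calls faced fewer alternatives. The calls of Car2, Car9 and Car12 for E2 against ovx in WT were lost only within sets 3 and 4. Car8 entered the fit only through ovx libraries, where it is high, so its 4 kept calls are no independent support. Of the 80 results of tested members, 22 that were not called passed under some alternative. The number of members called changed by more than 1.5 times as follows. In KO against WT in the intact state it went from 0 to 1 with log2(FPKM + 0.1), with quantile normalization and with a replicate block. In the E2 state it went from 2 to 1 with log2(FPKM + 0.1), median-ratio scaling and quantile normalization, to 0 with no filter, only the groups compared, the replicate block, set as a term and within sets 3 and 4, and ranged from 0 to 6 when a library was left out. The 6 came without KO E2 replicate 2, which resembled WT E2, so its removal favors a wider gap between the genotypes. In the mean of the states it ranged from 1 to 3 with a library left out. E2 against ovx in WT gave 7 in place of 4 with only the groups compared, 2 within set 3 and 1 within set 4, and in KO 2 to 5 with a library left out. The difference between genotypes gave 1 in place of 2 with log2(FPKM + 0.1), 0 with the block and within set 3 and 1 to 4 with a library left out for E2, and for intact 0 in place of 1 with log2(FPKM + 0.1), 3 with only the groups compared and 1 to 3 with a library left out. The Car14 difference ranged from 0.16 to 0.35 with a library left out.

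Sign changes were found only in results without a call. With a library left out, Car3 ranged from -0.29 to 0.042 in KO against WT in intact, from -0.089 to 2.69 in ovx, from -0.091 to 1.50 in E2 against ovx in WT (-0.13 within set 3), from -2.56 to 0.21 in intact against ovx in KO and from -0.14 to 4.47 in the genotype difference for E2. Car5b ranged from -0.047 to 0.27 in KO against WT in ovx (-0.15 with set as a term), from -0.55 to 0.59 in E2 (-0.35 within set 4) and from -0.70 to 0.44 in the genotype difference for E2 (-0.16 with log2(FPKM + 0.1), -0.18 with the replicate block), and was -0.078 in intact against ovx in KO with the block. Car9 ranged from -0.064 to 0.88 in E2 against ovx in KO (-0.11 within set 3) and from -1.09 to 0.17 in the genotype difference for intact. Car12 ranged from -1.39 to 0.31 in E2 against ovx in KO (0.51 with the block). Car13 ranged from -0.18 to 0.47 in KO against WT in intact (-0.082 with quantile normalization, -0.089 with the block, -0.13 within set 1) and from -0.48 to 0.17 in the genotype difference for intact. Car8 was 0.024 in the genotype difference for intact with log2(FPKM + 0.1). The cause of these changes was not tested.

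Deviations from the group means correlated at -0.03 to 0.34 over 6 pairs of libraries with equal replicate numbers. Whether equal numbers mark paired samples was not tested. With the block, Car2 was -3.50 in the genotype difference for E2 (adjusted p = 0.133), Car4 -2.14 there (adjusted p = 0.0895) and Car5b -1.94 in KO against WT in intact (adjusted p = 0.0242). Scaling moved the median of all genes by over 0.1 in E2 against ovx in WT (-0.29 by quantile normalization, -0.14 by median ratios), E2 against ovx in KO (-0.17 by quantiles), intact against ovx in WT (-0.16 and -0.15), KO against WT in ovx (-0.12 by quantiles) and the genotype differences (0.15 and 0.15 by quantiles, 0.11 by median ratios for E2), with no call of a member reversed. Depth is unknown, which limits values under 1 FPKM most.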
